A study of Mus musculus with 8 samples.

Results

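The transcripts of 10 regulators of alternative splicing were compared between 2D- and 3D-cultured adipose-derived stem cells (ADSCs): Esrp1, Esrp2, Rbm47, Rbfox2, Qk, Mbnl1, Mbnl2, Ptbp1, Celf1 and Celf2. They were found by gene symbol among the 24346 genes listed for each library. All 10 were listed, and all 10 were among the 18862 genes with a value above 0 in at least 1 library. Their rows were picked by gene symbol, but the 10 regulators were chosen with earlier results of these data known.

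The cells were primary cultures from the gonadal adipose tissue of wild-type (WT) male BALB/c mice aged 12 weeks, labelled as mesenchymal stem cells. The 2D libraries came from mice 2, 3, 4 and 5. The 3D libraries came from mice 1, 4, 5 and 7, whose dissociated cells were embedded in Matrigel, a basement membrane gel, as organotypic cultures. Each library was 1 mouse in 1 culture type, and mice 4 and 5 gave a library of each type. The labels do not say which of the media described for the study was used for a library, nor the passage, so differences in gel, medium and passage cannot be told apart. The column of the 3D library of mouse 1 is headed m_1_13, where the other 7 headers end in 2D or 3D.

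Alternative splicing joins the exons of a gene in different combinations, and epithelial and mesenchymal cells use different exons of many of the same genes. Esrp1 and Esrp2, the epithelial splicing regulatory proteins, and Rbm47 favour exon choices typical of epithelial cells. Rbfox2 and Qk (quaking) act on many of the same exons and favour mesenchymal choices, while the muscleblind proteins Mbnl1 and Mbnl2, the polypyrimidine tract-binding protein Ptbp1 and the CELF proteins regulate splicing in many tissues. The values described here are levels per gene, so they measure the RNA of these regulators and not the exons that they act on.

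The values are FPKM, fragments per kilobase of transcript scaled to the mapped reads of a library and were quantile normalized so that all libraries share 1 distribution. Fold changes are those of limma's moderated test on log2(FPKM + 1), 3D over 2D, with n = 4 libraries in each culture type and p-values adjusted by the Benjamini-Hochberg method over 18862 genes. The added 1 understates the fold change of genes with few FPKM. The depth is not given with the files. Steps between low FPKM values gave estimates of 16.5 M to 17.3 M fragments in the 2D libraries and 14.5 M to 15.6 M in the 3D libraries, with 69.2% to 82.1% of low values within 0.15 of a whole fragment. Limits from fragments cover counting error only.

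The marker genes differed between the culture types, although both carry the label mesenchymal stem cells. The summed level of 10 stromal markers was 3198 to 6299 normalized FPKM in 2D and 6.67 to 17.0 in 3D, where Pdgfrb and Dcn were listed at 0 in all 4 libraries. The summed level of 8 epithelial markers was 31.8 to 694 in 2D and 2341 to 2813 in 3D, and Cdh1, Epcam, Cldn4 and Cldn7 stayed under 1 FPKM in every 2D library. The 2D libraries of mice 3 and 4 stood apart from the other two, with 816 and 2002 FPKM summed over 5 mesothelial markers against 1.99 and 0.525 in mice 2 and 5. The keratin Krt8 followed the same split, at 26.8 and 261 FPKM against 0 and 0.0603. Krt18 did so too, at 114 and 256 against 2.89 and 0. Krt19 was 109 in mouse 4, but 31.6 in mouse 3 beside 25.5 and 28.0 in mice 2 and 5. Krt7 did not follow it, with 67.3 in mouse 4 and 3.02 in mouse 3 against 2.73 and 3.48. The summed leukocyte markers were 2.24 to 23.1 in 2D and 6.25 to 42.3 in 3D, and Ptprc, which marks all leukocytes, reached at most 0.0779. Of these markers, Cd68 was 0.874 to 3.01 in 2D and 5.98 to 36.3 in 3D and was called higher (limma's adjusted p = 0.0133). Csf1r averaged 0.868 in 2D and 4.32 in 3D and did not pass (limma's adjusted p = 0.129). Lyz2, Adgre1 and Tyrobp were 0 in every 3D library, and Cd79a averaged 0.175 in 2D and 0.0146 in 3D. The summed endothelial markers reached at most 6.79, epididymal markers 4.55 and, in 3D, neuronal markers 0.548 and muscle markers 0.0444. In 2D the neuronal sum was 31.6 to 102, nearly all of it Tubb3. The muscle sum there was 2.21 to 100 with its highest value in mouse 2, all of it Acta1. In 3D the library of mouse 1 stood apart, with 53.1% of its FPKM total in genes shorter than 300 nt, against 10.1% to 22.4% in the others. In 2D this share was highest in mouse 3, at 31.3% against 5.31% to 16.1% in the others. Since these are bulk samples, fewer cells of a type and less RNA per cell cannot be told apart.

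Of the 10 regulators, 3 were higher and 4 lower in 3D at an adjusted p below 0.05, and 3 did not pass. Esrp1, Esrp2 and Rbm47 rose, and Rbfox2, Qk, Mbnl2 and Celf2 fell. In the whole comparison 21.2% of the genes tested were called higher and 20.3% lower, so calls of this kind were common among all genes. The 4 libraries of 3D all lay above the 4 of 2D for the same 3 genes that rose and all below for the same 4 that fell. Such separation was met in 21.6% of all genes upward and 20.9% downward. With the mouse as a block, only mice 4 and 5 inform the comparison and 1 residual degree of freedom is left. Each regulator kept its direction in that fit except Celf1, but limma called 0 of the 10, with adjusted p-values of 0.111 to 0.151 for the 7 named above, and it called 0 of all 18862 genes. At an unadjusted p below 0.05, the block fit passed 7 of the 10 regulators and 5216 of all genes.

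**Figure D1:**
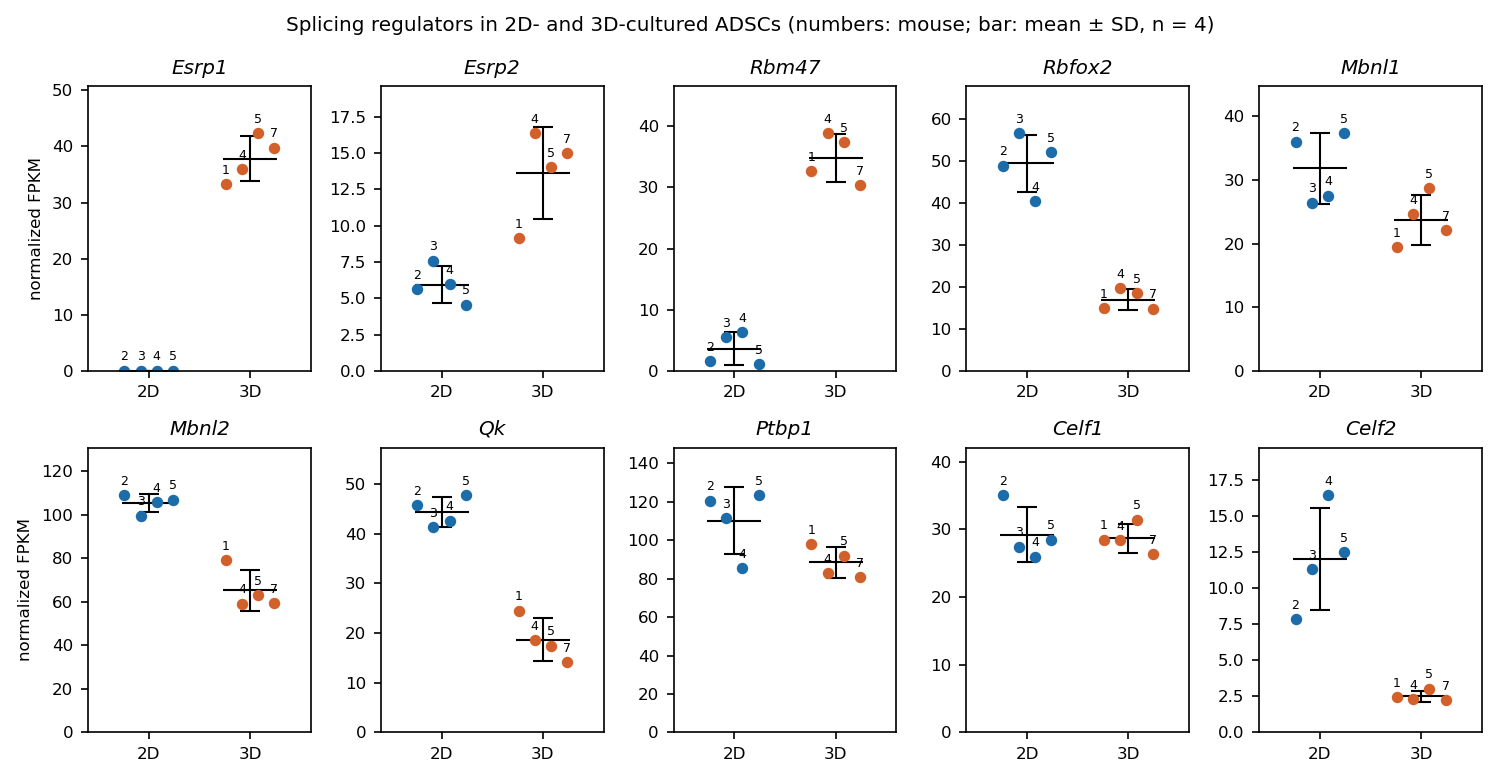
Normalized FPKM (vertical axes, each from 0 and on its own scale) of the 10 splicing regulators in 2D- and 3D-cultured ADSCs. Each point is 1 library labelled with its mouse number, and the bars give the mean ± SD of 4 libraries. The cultures do not overlap for Esrp1, Esrp2, Rbm47, Rbfox2, Mbnl2, Qk and Celf2, and they overlap for Mbnl1, Ptbp1 and Celf1.

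Promoter sequences of 7 of the 10 genes were in the RefSeq table of the GRCm38.p6 assembly, as windows of 300 bases that run from before to just after a transcript start. Entries for Esrp1, Esrp2 and Rbfox2 were missing. The windows of Rbm47, which rose, and Qk, which fell, are shown as examples that lie far apart in their number of CpG dinucleotides, which capitals mark. Rbm47 has 3 windows, and the one with the most CpG is printed. Both are on the minus strand and are written 5′ to 3′ along the transcript.
Rbm47, chr5:66150929-66151228: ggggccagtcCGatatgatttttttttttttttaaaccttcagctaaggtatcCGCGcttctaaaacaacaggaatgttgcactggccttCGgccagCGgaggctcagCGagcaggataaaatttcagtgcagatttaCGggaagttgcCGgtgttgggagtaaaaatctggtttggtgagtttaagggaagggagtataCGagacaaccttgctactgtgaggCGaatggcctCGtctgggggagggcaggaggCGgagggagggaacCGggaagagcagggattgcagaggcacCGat
Qk, chr17:10319312-10319611: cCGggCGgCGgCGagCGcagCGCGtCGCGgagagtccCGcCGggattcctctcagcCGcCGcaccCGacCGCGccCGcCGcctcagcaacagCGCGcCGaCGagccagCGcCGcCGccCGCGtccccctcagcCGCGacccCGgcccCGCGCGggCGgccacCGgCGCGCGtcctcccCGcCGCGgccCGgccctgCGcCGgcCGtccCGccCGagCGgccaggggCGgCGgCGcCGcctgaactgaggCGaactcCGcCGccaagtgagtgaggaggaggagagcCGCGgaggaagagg

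The Qk window holds 57 CpG dinucleotides, more than 99.8% of the 32851 windows of that length, whose median is 7. The printed Rbm47 window holds 14, and the other two of this gene hold 3 and 10. Of the genes that rose only Rbm47 has windows here, so the number of CpG cannot be compared with the direction of change. Among the other genes that fell, the Mbnl2 window holds 10 and the 5 windows of Celf2 hold 4, 6, 6, 8 and 48. Those of genes that did not pass hold 34 (Celf1), 22 (Ptbp1) and 2 and 41 (Mbnl1). The E-box CAGGTG, the sequence that the repressors of the Zeb and Snail families bind, was searched on both strands and is in no window of the 7 genes, while 20.2% of all windows hold it. AACCGG, the core of the sequence bound by grainyhead-like factors, is in the printed Rbm47 window and in 1 window each of Mbnl1 and Celf2, and in 6.83% of all windows. These matches describe letters in these windows only.

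Esrp1 (chr4:11331933-11386783, minus strand, GRCm38) encodes the more epithelium-restricted of the ESRP proteins. It was listed at 0 in all 4 2D libraries. In 3D it was 33.2 normalized FPKM in mouse 1, 35.96 in mouse 4, 42.3 in mouse 5 and 39.8 in mouse 7. The 3D libraries lay close together, at 37.8 ± 4.02 FPKM (SD, n = 4), about 1591 to 2002 estimated fragments each. The value that 3 fragments would give was 0.0478 to 0.0502 FPKM in the 2D libraries. Since the files hold no counts, a 0 can also be a failed estimate, and no fold is given against it. Over all genes, 18 were at 0 in 1 library while the other 3 of its culture type held at least 5 FPKM. The log2 fold change was 5.27 (SE 0.12, limma's adjusted p = 1.5e-07), a size that depends on the added 1, since it was 8.56 with 0.1 added. Esrp1 was 1 of 14 genes listed at 0 in all 2D libraries and at 20 FPKM or more in all 3D libraries. Its place among the genes tested moved from the 3.35th percentile of the 2D means to the 89.0th of the 3D means. The former is the mean rank shared by all genes with a 2D mean of 0, so no gene lay below it there.

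Esrp2 (chr8:106130319-106136974, minus strand) encodes the paralog of Esrp1 with overlapping targets. It was present in both cultures. In 2D it was 5.61 FPKM in mouse 2, 7.60 in mouse 3, 5.96 in mouse 4 and 4.55 in mouse 5. Its 3D values were 9.14 FPKM in mouse 1, 16.4 in mouse 4, 14.0 in mouse 5 and 15.0 in mouse 7. The 3D libraries were all higher, and that of mouse 1 was the nearest to 2D. The means were 5.93 ± 1.26 and 13.6 ± 3.14 FPKM (SD, n = 4), which is 2.30-fold higher in 3D. The log2 fold change was 1.07 (SE 0.21, limma's adjusted p = 0.00461). Without the 3D library of mouse 1 the log2 fold change was 1.25 (SE 0.17). Exons of Esrp2 share 219 nt with Nfatc3 on the opposite strand, and the strand setting of the counting is not given in the sources used here.

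Rbm47 (chr5:66016549-66173118, minus strand) encodes an RNA-binding protein that also takes part in RNA editing with Apobec1. Its 2D values were 1.59 FPKM in mouse 2, 5.51 in mouse 3, 6.31 in mouse 4 and 1.10 in mouse 5. The 3D libraries held 32.7 FPKM in mouse 1, 38.8 in mouse 4, 37.4 in mouse 5 and 30.3 in mouse 7. All 3D libraries were higher by a wide gap, and the 2D libraries fell into a lower pair and a higher pair. The means were 3.63 ± 2.66 and 34.8 ± 3.97 FPKM (SD, n = 4), 9.59-fold higher in 3D. Between the cultures the log2 fold change was 3.15 (SE 0.42, limma's adjusted p = 7.4e-04). The higher pair in 2D was mice 3 and 4, the libraries with mesothelial markers and Krt8. Without both of these libraries, a choice made after seeing the data, the log2 fold change was 3.88 (SE 0.15, limma's adjusted p = 2.7e-05). In mice 4 and 5 alone it was 3.32, and limma's adjusted p was 0.0525.

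**Figure D2:**
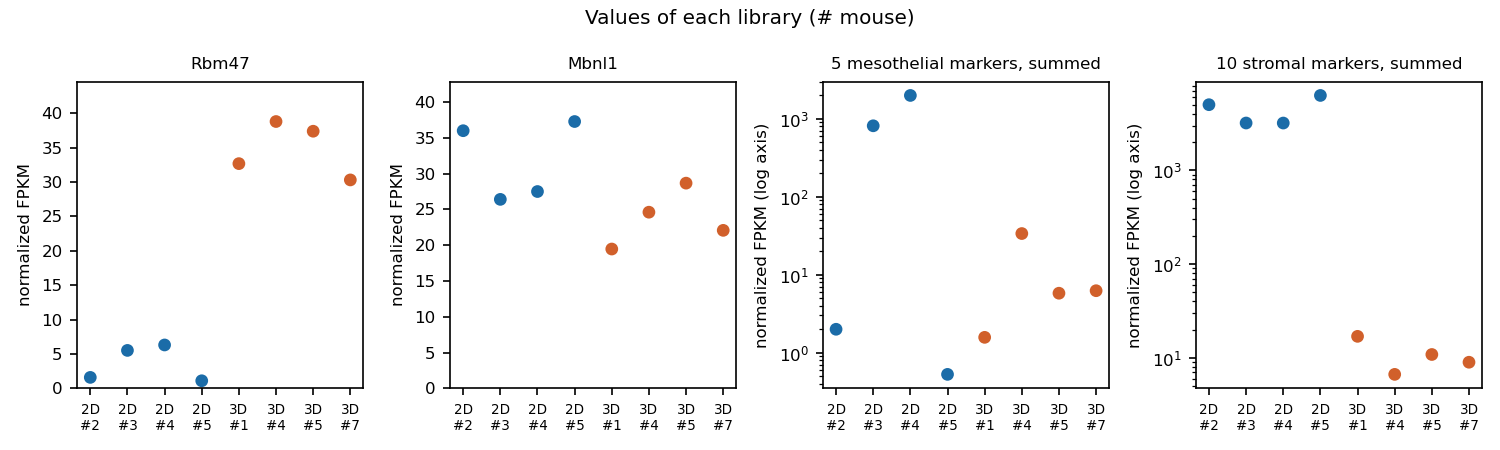
Normalized FPKM of Rbm47 and Mbnl1 (linear axes from 0) and of 5 mesothelial and 10 stromal markers summed (log axes) in each of the 8 libraries, 2D in blue and 3D in orange. In 2D, mice 3 and 4 are higher than mice 2 and 5 for Rbm47 and the summed mesothelial markers, and lower for Mbnl1 and the stromal sum. Of the stromal markers, Pdgfra and Dcn go the other way and are higher in mice 3 and 4.

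Rbfox2 (chr15:77078990-77307004, minus strand) encodes a protein that binds GCAUG in introns beside regulated exons. In 2D it was 48.9 FPKM in mouse 2, 56.5 in mouse 3, 40.4 in mouse 4 and 52.0 in mouse 5. In 3D it was 14.9 FPKM in mouse 1, 19.7 in mouse 4, 18.5 in mouse 5 and 14.8 in mouse 7. No 3D library reached the lowest 2D library, but none was near 0. The means were 49.5 ± 6.82 and 17.0 ± 2.49 FPKM (SD, n = 4), 2.91-fold lower in 3D. Between the cultures the log2 fold change was -1.49 (SE 0.14, limma's adjusted p = 1.1e-04). Its place among all genes tested went from the 91.5th percentile in 2D to the 75.9th in 3D.

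Qk (chr17:10202601-10319854, minus strand) encodes quaking, an RNA-binding protein of the STAR family that also promotes circular RNAs. The 2D libraries held 45.7 FPKM in mouse 2, 41.3 in mouse 3, 42.6 in mouse 4 and 47.8 in mouse 5. The 3D libraries held 24.5 FPKM in mouse 1, 18.5 in mouse 4, 17.4 in mouse 5 and 14.1 in mouse 7. The 3D values were all lower, and mouse 1 lay nearest to 2D, as it did for Esrp2. The means were 44.3 ± 2.94 and 18.6 ± 4.31 FPKM (SD, n = 4), 2.38-fold lower in 3D. The log2 fold change was -1.23 (SE 0.15, limma's adjusted p = 5.2e-04). Without the 3D library of mouse 1 the log2 fold change was -1.38 (SE 0.11).

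Mbnl2 (chr14:120275669-120431697, plus strand) encodes a muscleblind protein and was among the most abundant of the 10. Its 2D values were 109 FPKM in mouse 2, 99.6 in mouse 3, 106 in mouse 4 and 107 in mouse 5. Its 3D values were 79.2 FPKM in mouse 1, 59.2 in mouse 4, 63.1 in mouse 5 and 59.4 in mouse 7. The cultures did not overlap, and mouse 1 was again the 3D library nearest to 2D. The means were 105 ± 4.07 and 65.2 ± 9.51 FPKM (SD, n = 4), 1.62-fold lower in 3D. The log2 fold change was -0.69 (SE 0.10, limma's adjusted p = 0.00124). As deposited, without quantile normalization, the log2 fold change was -1.18.

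Mbnl1 (chr3:60472830-60629750, plus strand) encodes the muscleblind protein best known from myotonic dystrophy, in which expanded repeat RNA sequesters it. In 2D it was 36.0 FPKM in mouse 2, 26.4 in mouse 3, 27.5 in mouse 4 and 37.3 in mouse 5. In 3D it was 19.5 FPKM in mouse 1, 24.6 in mouse 4, 28.7 in mouse 5 and 22.1 in mouse 7. The 3D library of mouse 5 lay above the 2D libraries of mice 3 and 4, so the cultures overlapped. The log2 fold change was -0.41 (SE 0.16, 95% interval -0.77 to -0.04, limma's adjusted p = 0.0756) and did not pass. It did pass with the values as deposited (-0.60, limma's adjusted p = 0.0232), with upper quartile scaling (-0.47, 0.0348) and without the 3D library of mouse 5 (-0.51, 0.0482). Without the 2D libraries of mice 3 and 4 it was -0.60 (limma's adjusted p = 0.0270).

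Ptbp1 (chr10:79854427-79864771, plus strand) encodes a repressor of exons flanked by pyrimidine-rich sequence and had the highest mean of the 10 in both cultures. The 2D libraries held 121 FPKM in mouse 2, 111 in mouse 3, 85.4 in mouse 4 and 124 in mouse 5. The 3D libraries held 98.1 FPKM in mouse 1, 83.0 in mouse 4, 92.0 in mouse 5 and 80.9 in mouse 7. The 2D library of mouse 4 lay within the 3D values. Its log2 fold change was -0.30 (SE 0.13, limma's adjusted p = 0.101). Without the 2D library of mouse 4 it was -0.42 and passed (limma's adjusted p = 0.0106), as it did without the 2D libraries of mice 3 and 4 (-0.46, limma's adjusted p = 0.0134). Ptbp1 depended on the scaling more than the other regulators. It was -0.85 with the values as deposited (limma's adjusted p = 0.00398) and -0.71 with upper quartile scaling (limma's adjusted p = 0.00396). Among the 772 genes with a mean above 100 FPKM, the median log2 fold change was -0.49 as deposited, -0.35 with upper quartile scaling and 0.01 after quantile normalization. Exons of Ptbp1 share 295 nt with E130317F20Rik on the opposite strand.

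Celf1 (chr2:90940382-91019497, plus strand) encodes a protein that acts on splicing, translation and mRNA decay. Its 2D values were 35.1 FPKM in mouse 2, 27.4 in mouse 3, 25.9 in mouse 4 and 28.4 in mouse 5. Its 3D values were 28.5 FPKM in mouse 1, 28.4 in mouse 4, 31.4 in mouse 5 and 26.3 in mouse 7. All 3D values lay within the range of the 2D values. Its log2 fold change was -0.02, with a 95% interval from -0.27 to 0.23 (limma's adjusted p = 0.886), and it was -0.24 as deposited.

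Celf2 (chr2:6539694-7509563, minus strand) encodes the CELF protein best known from brain, heart and T cells. The 2D libraries held 7.83 FPKM in mouse 2, 11.3 in mouse 3, 16.5 in mouse 4 and 12.5 in mouse 5. The 3D libraries held 2.44 FPKM in mouse 1, 2.29 in mouse 4, 3.03 in mouse 5 and 2.21 in mouse 7. The 3D libraries were close together and all lower, at about 84.4 to 114 estimated fragments each. The means were 12.02 ± 3.56 and 2.50 ± 0.37 FPKM (SD, n = 4), 4.82-fold lower in 3D. Between the cultures the log2 fold change was -1.86 (SE 0.22, limma's adjusted p = 3.8e-04). Its place went from the 68.8th percentile of genes in 2D to the 44.4th in 3D, the lowest of the 10 there. Exons of Celf2 share 1961 nt of 25884 nt with Gm26565, a noncoding gene on the opposite strand.

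**Figure D3:**
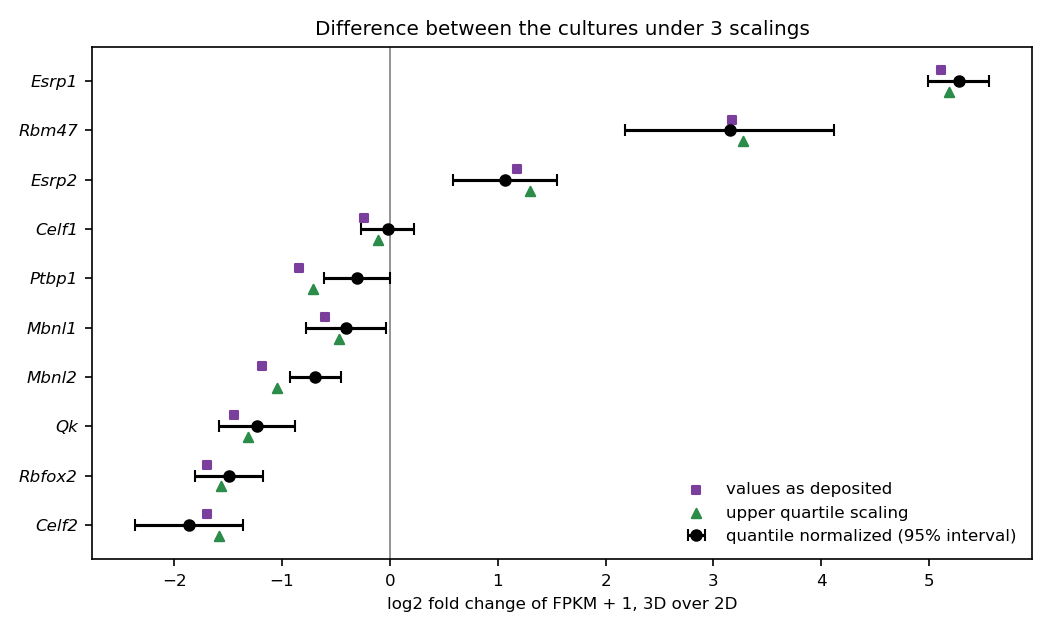
Log2 fold change of FPKM + 1, 3D over 2D (horizontal axis), of each regulator after quantile normalization (black, with 95% intervals), as deposited (squares) and with upper quartile scaling (triangles). Esrp1, Rbm47 and Esrp2 lie above 0 and Mbnl2, Qk, Rbfox2 and Celf2 below 0 under all 3 scalings, while Ptbp1 moves from -0.30 to -0.85.

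The order of the levels changed between the cultures. In 2D it ran from Ptbp1 (110 FPKM) and Mbnl2 (105) over Rbfox2 (49.5), Qk (44.3), Mbnl1 (31.8), Celf1 (29.2), Celf2 (12.02), Esrp2 (5.93) and Rbm47 (3.63) to Esrp1 at 0. The ranges of these neighbours overlapped for Ptbp1 and Mbnl2, Rbfox2 and Qk, Mbnl1 and Celf1, and Esrp2 and Rbm47. In 3D, Esrp1 (37.8 FPKM) and Rbm47 (34.8) came next after Ptbp1 (88.5) and Mbnl2 (65.2). Below them, Celf1 (28.6), Mbnl1 (23.7), Qk (18.6), Rbfox2 (17.0) and Esrp2 (13.6) each overlapped the next in range. Celf2 was last, and its range overlapped none.

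Ratios between regulators within a library are given as descriptions. A factor applied to a whole library leaves them as they are, but quantile normalization does not, so each is given on the deposited and on the normalized FPKM. Esrp1, Esrp2 and Rbm47 together were 0.0402 to 0.127 of Rbfox2 and Qk together in 2D and 1.84 to 2.73 in 3D as deposited. After normalization the ranges were 0.0566 to 0.148 and 1.90 to 2.94. On both scales the highest 2D ratios were those of mice 3 and 4. The ratio of Esrp1 to Esrp2 in 3D was 2.02 to 3.14 as deposited and 2.20 to 3.64 normalized, with its highest value in mouse 1. Celf1 was 1.65 to 5.50 times Celf2 in 2D and 8.46 to 10.5 times in 3D as deposited, and 1.58 to 4.48 and 10.4 to 12.4 times normalized. These 2 comparisons of the cultures, of the epithelial with the mesenchymal regulators and of Celf1 with Celf2, did not overlap on either scale. The first had to separate on the normalized values, since each regulator in it separated the cultures there. Mbnl2 was 3.19 to 4.14 times Mbnl1 in 2D and 2.03 to 3.50 times in 3D as deposited, and 2.87 to 3.85 and 2.20 to 4.07 times normalized. The 3D libraries of mice 4, 5 and 7 lay below the 2D range on both scales, while mouse 1 lay within it as deposited and above it normalized. Ptbp1 was 13.7 to 15.6 times its paralog Ptbp2 in 2D and 7.39 to 10.3 times in 3D as deposited. After normalization the ranges overlapped, at 10.7 to 12.2 and 9.27 to 12.9, so the separation of this ratio depended on the scaling.

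**Figure D4:**
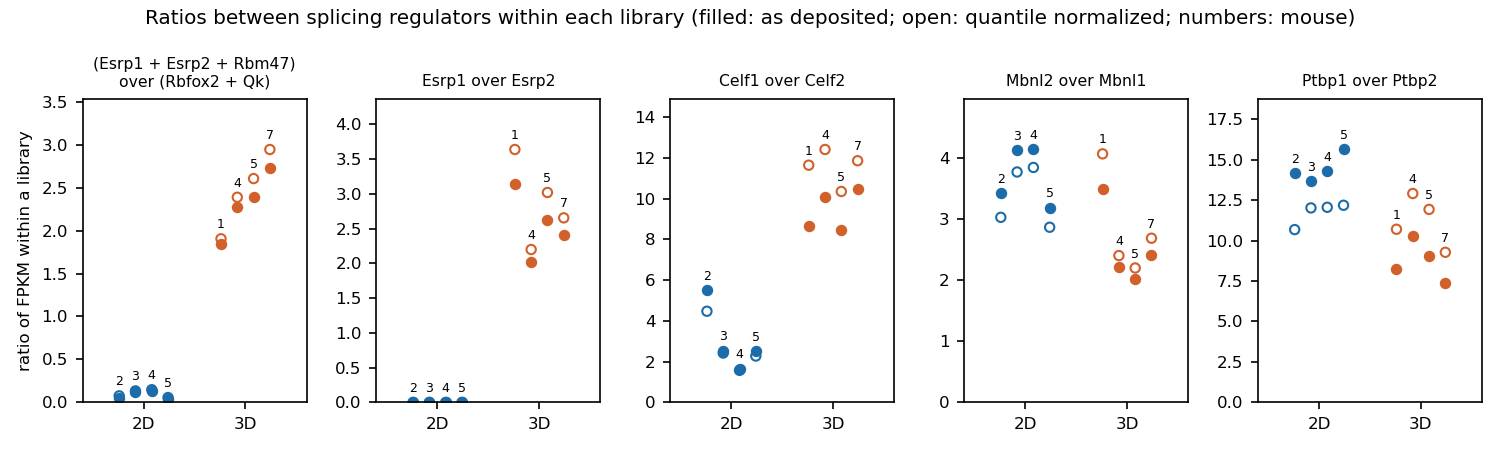
Ratios of FPKM within each library (vertical axes from 0), as deposited (filled) and quantile normalized (open), 1 pair of points per library labelled with its mouse number, 2D in blue and 3D in orange. The ratio of epithelial to mesenchymal regulators and that of Celf1 to Celf2 are higher in every 3D library on both scales, while Ptbp1 over Ptbp2 separates the cultures only as deposited.

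The pattern of Esrp1 over the 8 libraries was shared by many genes. Among 12582 other genes that averaged 1 FPKM or more, Crb3, Prom1 and 4930412O13Rik had the highest Pearson correlations with it on log2(FPKM + 1), each 1.00 to 2 decimals, and 1076 genes reached 0.95. These points fall into 2 clusters, the cultures, so the correlation mainly restates the difference between them. For Qk the nearest genes were Rab30 (0.998), Pxdc1 (0.994) and Sh3pxd2a (0.992), and 327 genes reached 0.95.

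Of 13 paralogs of the 10 regulators, 2 were higher and 2 lower in 3D and 9 did not pass. The share called was 30.8%, below the 41.5% of all genes tested. Ptbp3, a paralog of Ptbp1 with related binding, was 22.03 ± 4.30 FPKM in 2D and 91.6 ± 23.7 in 3D (SD, n = 4). Its log2 fold change was 1.99 (SE 0.22, limma's adjusted p = 2.7e-04). It thus rose while Ptbp1 and Ptbp2 did not pass, the latter at 9.45 ± 1.78 and 8.01 ± 1.22 FPKM (SD, n = 4). Syncrip and Hnrnpr, both related to Rbm47, went opposite ways. Syncrip fell by 0.68 on the log2 scale (limma's adjusted p = 0.00164), and Hnrnpr rose by 0.41 (limma's adjusted p = 0.0175). Rbfox1 was called lower at under 1 FPKM in all libraries, a call that was lost on leaving out in turn each of 6 libraries, those other than 2D mice 3 and 4 (limma's adjusted p up to 0.0747). Mbnl3 was 5.02 ± 3.39 and 1.82 ± 0.78 FPKM (SD, n = 4) and did not pass (limma's adjusted p = 0.148). Its 2D values were 8.04 and 7.81 in mice 3 and 4 and 1.52 and 2.72 in mice 2 and 5, and it passed without the 2D library of mouse 2 (log2 fold change -1.28, limma's adjusted p = 0.0466). Celf4 was 2.76 ± 0.37 and 4.75 ± 2.92 FPKM (SD, n = 4) and did not pass either. Rbfox3, Celf3, Celf5, Celf6, A1cf and Rbm46 stayed under 1 FPKM in every library. Of these, Celf3 passed without the 3D library of mouse 1 (limma's adjusted p = 0.0499) and Celf5 without the 2D library of mouse 2 (limma's adjusted p = 0.0175). Over all alternatives, limma's lowest adjusted p was 0.00363 for Celf3 and 0.0175 for Celf5. As deposited and with upper quartile scaling, 3 paralogs were higher.

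Transcription factors linked to the ESRP genes all passed the test. Zeb1 and Zeb2, repressors of Esrp1 and other epithelial genes, were 16.9 ± 5.18 and 19.9 ± 1.61 FPKM in 2D and at most 0.0807 and 0.0326 in any 3D library. Their log2 fold changes were -4.07 and -4.36. Snai1 and Snai2, repressors of the Snail family, had log2 fold changes of -2.65 and -3.58. Grhl2, an activator of epithelial genes, was at most 0.0273 FPKM in 2D and 25.3 to 40.1 in 3D (log2 fold change 4.89). Ovol1 and Ovol2, epithelial zinc finger factors, rose by 1.78 and 1.18 on the log2 scale, the latter from 0 in all 2D libraries. Limma's adjusted p was at most 1.4e-04 for each of these 7 genes. In 2D, Zeb1 was 11.9 and 13.4 FPKM in mice 3 and 4 and 19.3 and 23.0 in mice 2 and 5. Snai2 and Snai1 were likewise lower in mice 3 and 4, at 12.3 and 13.7 against 24.3 and 21.4 FPKM and at 4.80 and 3.55 against 7.42 and 6.71. Zeb2 was not lower there, at 21.2 and 20.5 FPKM in mice 3 and 4 and 17.6 and 20.3 in mice 2 and 5. The part of the mesothelial RNA in these differences was not tested.

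Of 41 other regulators of alternative splicing, 11 were higher and 3 lower, with a median log2 fold change of 0.13 beside 0.00 for all genes. The share called was 34.1%, below the 41.5% of all genes tested. Rbm20, a splicing factor of muscle genes such as titin, rose from 0.0683 ± 0.0457 to 2.30 ± 1.57 FPKM (SD, n = 4), with a log2 fold change of 1.52 (SE 0.27, limma's adjusted p = 0.00330). The SR protein Srsf5 and Akap8 rose by 0.95 and 0.59. Khdrbs3, a STAR protein like Qk, fell by 3.42 (SE 0.53, limma's adjusted p = 0.00167), from 25.2 ± 17.9 to 1.01 ± 0.45 FPKM (SD, n = 4). Its 2D values were 40.3 and 41.1 in mice 2 and 5 and 10.9 and 8.57 in mice 3 and 4. The part of the mesothelial RNA in this split was not tested. Srrm4 and Elavl1 fell by 0.45 and 0.41, and the call of Elavl1 was lost on leaving out each of 6 libraries, those other than 2D mice 3 and 4 (limma's adjusted p up to 0.0793). Srrm4 stayed under 1 FPKM in every library, at 0.437 ± 0.269 in 2D and 0.0401 ± 0.0355 in 3D (SD, n = 4). The balance of this list depended on the scaling, with 3 higher and 13 lower as deposited and 5 higher and 8 lower under upper quartile scaling.

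Of 32 core spliceosome proteins, 6 were higher and 6 lower, with a median log2 fold change of 0.06. The share called was 37.5%, below the 41.5% of all genes tested. Sf3b2, Snrnp70 and Prpf8 rose by 0.79, 0.66 and 0.56, and Snrpa1, Snrpd1 and U2af1 fell by 0.73, 0.61 and 0.42. The call of Snrpa1 was lost on leaving out 2D mouse 2 or 5 or 3D mouse 1, 5 or 7 (limma's adjusted p up to 0.118), and that of U2af1 on leaving out these or 2D mouse 4 (limma's adjusted p up to 0.106). The number lower fell to 1 without 2D mouse 2, 2D mouse 5, 3D mouse 5 or 3D mouse 7, and to 2 without 3D mouse 1. As deposited, 1 was higher and 8 lower. None of the 32 moved as far as Rbfox2, Qk, Celf2, Rbm47, Esrp1 or Esrp2 under quantile normalization. Sf3b2 and Snrpa1 moved further than Mbnl2 (-0.69).

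Genes known for exons that differ between epithelial and mesenchymal cells were examined at the gene level only. Of 20 such genes 19 were listed, without Epb41l5, and 6 were higher and 6 lower. The share called was 63.2%, beside 41.5% of all genes tested. Fgfr2, whose exon IIIb is a target of the ESRP proteins, was 2.65 ± 1.83 FPKM in 2D and 42.3 ± 6.60 in 3D (SD, n = 4). Its log2 fold change was 3.67 (SE 0.30, limma's adjusted p = 6.6e-05). Ptprf and Scrib rose by 3.89 and 1.16. Fn1, Tpm1 and Actn1, genes of matrix and contractile cytoskeleton, fell by 7.55, 3.55 and 2.30. Cd44, Ctnnd1 and Enah, further targets of the ESRP proteins, had log2 fold changes of -0.29, -0.19 and -0.20 and did not pass (limma's adjusted p = 0.362, 0.178 and 0.376). The calls in this list depended on the scaling, with 6 higher and 8 lower as deposited and 7 and 8 with upper quartile scaling. Over all alternatives, limma's lowest adjusted p was 0.0314 for Cd44, 0.00116 for Ctnnd1 and 0.202 for Enah. Cd44 and Ctnnd1 thus passed under some settings. Which exons these transcripts held was not measured here.

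**Figure D5:**
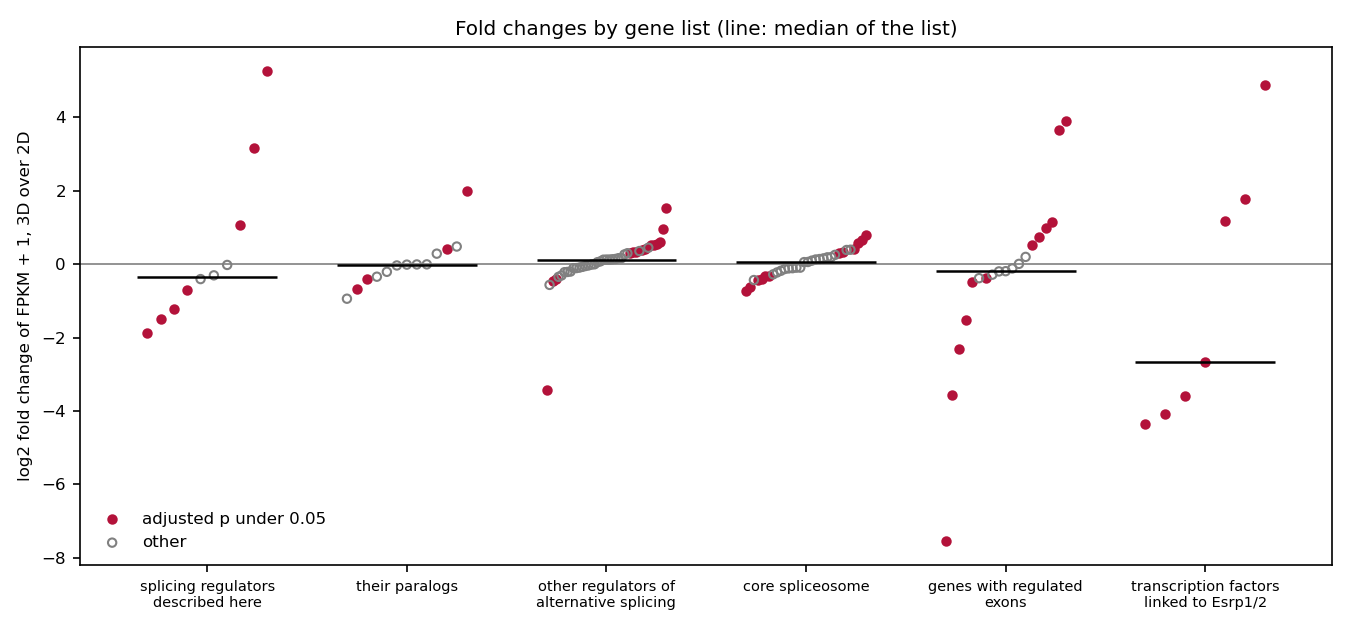
Log2 fold change of FPKM + 1, 3D over 2D (vertical axis), of the genes in 6 lists (horizontal axis), with red points for limma's adjusted p below 0.05, open points for the other genes and a line at each list's median. Among the 41 other regulators and the 32 core spliceosome proteins most points lie near 0, with medians of 0.13 and 0.06. Khdrbs3, one of the other regulators, lies at -3.42, and the paralog Ptbp3 at 1.99. Esrp1 and Rbm47 lie above 3, and all 7 transcription factors are called.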

How the data were processed

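Total RNA was sequenced from 8 cultures, 1 library per mouse and culture. The authors made directional libraries after removal of rRNA, trimmed the paired-end reads, mapped them with TopHat (to mm10, per the submitters' processing notes) and deposited Cufflinks FPKM values per gene. The annotation and strand setting are not given in the sources used here. The deposited values were not yet quantile normalized, the next step in the study's methods.

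The 5484 genes at 0 in every library were left out and 18862 were quantile normalized, converted to log2(FPKM + 1) and compared with limma 3.58.1 (R 4.3.3), with an intensity trend and no covariates, a procedure also tested on simulated data. Depth was estimated from low values of 875 genes that GENCODE M21 gives only 1 transcript, of 3000 nt or more. It also gave gene positions.

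Mouse numbers pair mice 4 and 5. The deviations of their libraries from the culture means correlated at -0.05 and -0.11 over 12577 genes. The 10 regulators and the gene lists were chosen with earlier results of these data known. In other lists, up to 3 rises and 3 falls by size among called genes were named. Cd44, Ctnnd1, Enah, Nfatc3, E130317F20Rik and Gm26565 were named outside this rule. For Esrp1 and Qk, the 3 most correlated genes averaging 1 FPKM or more were named. Alternatives were the deposited values, upper quartile scaling, short genes left out, other filters, a pseudocount of 0.1, no trend, mouse as block or random effect, mice 4 and 5 only and each library left out.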

Additional observations from a re-analysis of the deposited data

How the results depend on the processing

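No regulator reversed its direction as a called result, and 174 of 190 combinations of a regulator with 1 of 19 alternatives kept their side of the threshold. With the mouse as a replicate block (limma, 1 residual degree of freedom) 0 genes were called in either direction, in any list, and the log2 fold changes were 5.32 for Esrp1, 1.38 for Esrp2, 3.32 for Rbm47, -1.22 for Rbfox2, -0.79 for Mbnl2, -1.28 for Qk and -2.07 for Celf2, with 7 of these 7 at an unadjusted p below 0.05. With mice 4 and 5 only, 1788 genes were higher and 1432 lower, and Rbm47 (3.32) did not pass. In that subset the calls were 1 higher and 0 lower among the paralogs, 2 and 1 among the other regulators, 3 and 0 in the core spliceosome and 2 and 3 among the genes with regulated exons. Mbnl1 and Ptbp1 passed with the values as deposited (-0.60 and -0.85), with upper quartile scaling (-0.47 and -0.71) and without the 2D libraries of mice 3 and 4 (-0.60 and -0.46), an alternative chosen after seeing the data. Among the other regulators the calls were 3 higher and 13 lower as deposited, 5 and 8 with upper quartile scaling, and 7 and 6 without these 2D libraries, and 5 were lower with no intensity trend. In the core spliceosome 1 was higher as deposited and 3 with upper quartile scaling, and 2 were lower with no filter. Of the paralogs, 1 was higher without the 2D libraries of mice 3 and 4, and 1 was lower with no filter and 1 among genes averaging 1 FPKM or more. The cause of these changes was not tested.

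Leaving out each library in turn gave 3393 to 4051 genes higher and 3204 to 3835 lower, 3 regulators higher and 4 to 5 lower. The log2 fold changes ranged over 5.24 to 5.35 for Esrp1, 0.95 to 1.25 for Esrp2, 2.79 to 3.42 for Rbm47, -1.58 to -1.41 for Rbfox2, -1.38 to -1.13 for Qk, -0.80 to -0.66 for Mbnl2, -0.51 to -0.32 for Mbnl1, -0.42 to -0.24 for Ptbp1, -0.07 to 0.07 for Celf1 and -2.001 to -1.70 for Celf2. The core spliceosome had 4 to 7 higher and 1 to 5 lower, the other regulators 8 to 10 higher and 2 to 5 lower, the paralogs 2 to 3 higher and 1 to 3 lower, and the genes with regulated exons 6 higher and 5 to 6 lower. Since the files hold no counts, the 0 of Esrp1 in 2D sets no upper limit, and they hold no exon values.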
